A study of Mus musculus with 59 samples.

Results

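Enzymes and an electron carrier of mitochondrial fatty acid β-oxidation were followed through the peak lists of 3 transcription factors in mouse liver. The 10 genes, *Acadm*, *Acadl*, *Acadvl*, *Acads*, *Hadha*, *Hadhb*, *Hadh*, *Acaa2*, *Etfdh* and *Decr1*, were chosen by name, though with earlier results of these data known. A peak belonged to one of them if its center lay inside the gene, or if its nearest transcription start site (TSS) of a protein-coding RefSeq gene lay within 100 kb and was that of the gene. Peaks whose centers lay within 200 bp were joined into sites, first across the feeding states of a factor and then across factors. By this rule the 10 genes, of 21774 protein-coding genes, held 40 of 38502 sites.

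The sites came from chromatin immunoprecipitation sequencing (ChIP-seq) of BCL6, PPARα and PPARδ in livers of male C57BL/6 mice of wild type genotype, either fed ad libitum or fasted overnight. BCL6 was also mapped in ad libitum fed livers of male *Bcl6* fl/fl mice of the C57BL/6 strain, which carry the floxed allele and no Cre. The name of that list gives no feeding state, and it was taken as the list of the fed BCL6 samples, the only BCL6 samples of that genotype analysed here. Each of the 7 lists combined 3 samples, which the study's methods give as separate animals, and held positions only. Whole liver was used, so that cell types were not separated, and ages were not given in the labels. Because each list was pooled by the authors, no value here carries an error between animals, and each site was scored by presence or absence in a list. The depth is unknown from the lists, and a site that was not called is not shown to be unbound. Intervals of percentages are 95% Wilson intervals. These hold the error of counting alone, and take neighboring sites as separate although sites are not replicates.

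Mitochondrial β-oxidation shortens fatty acyl-CoA in a repeating cycle of dehydrogenation, hydration, a further dehydrogenation and thiolysis, and in the liver it feeds ketone body synthesis when food is withheld. PPARα and PPARδ are nuclear receptors that are activated by fatty acids and bind DNA as partners of RXR, classically at direct repeats of a 6-letter half-site with a single base between them. BCL6 is a zinc finger protein known mainly as a transcriptional repressor.

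Direct repeats of AGGTCA with 1 base between them (DR1) are the classical PPAR element, and were searched on both strands in the 200 bp centered on each PPARα site, with up to 2 mismatches in the 12 fixed letters. Such a word lay in 9 of 37 PPARα sites at the 10 genes (24.3%, interval 13.4% to 40.1%), compared with 14.0% of all PPARα sites and 3.23% of windows 1000 bp to either side of them. The share of all PPARα sites lay inside the interval of the 10 genes. All 9 sites with a word also held PPARδ, whereas over the genome 1475 of the 4666 PPARα sites with such a word did. Of the 9 sites, 8 are shown, with 10 words. Each line below gives a gene, the distance of its site from the TSS in bp, the lowest mm10 position that the word covers, and the word as read 5′ to 3′ on the strand of the repeat, with capitals for the letters that match the consensus. The words at *Hadhb*, at *Decr1* and at *Hadh* +8112 were added after their match was seen.
Acadm −295, 153944969: AGGTCAcAGcTgA
Acads +202, 115119111: AGGaCAaAGGcCA
Hadhb +14832, 30170335: AaGTCAtAGGTaA
Hadhb +14832, 30170414: AGGTtAaAGGTaA
Hadh +8112, 131263951: cGGTCAaAGGgCA
Hadh +736, 131271371: gGGTCAaAGGTCA
Etfdh +410, 79628295: AGGTtAaAGGTCA
Etfdh +410, 79628381: AGGgCAaAGGTCA
Decr1 +7063, 15938365: AaaTCAcAGGTCA
Decr1 +550, 15944824: AGGTaAaAGGTCc
The closest words, with 1 mismatch, were those of *Hadh* +736 and of *Etfdh*, whose site held both of its words within 60 bp of the PPARα center. The words of *Acads*, *Decr1* and *Hadh* +736 are on the plus strand, and those of *Acadm*, *Hadhb*, *Etfdh* and *Hadh* +8112 on the minus strand. The *Etfdh* words lay on chromosome 3, as did those of *Acadm* and *Hadh*, whereas those of *Acads* and *Hadhb* lay on chromosome 5 and those of *Decr1* on chromosome 4.

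Whole windows of 200 bp are shown for 5 of the genes, to set these words in their context at the PPARα site nearest to the TSS. They include every gene whose nearest window held a word of up to 2 mismatches. The nearest windows of *Acadvl*, *Hadha*, *Hadhb*, *Acaa2* and *Decr1* (−50 bp) held none and are not shown. The best match in each of those was of 3 mismatches. Letters are those of the plus strand of mm10, read from the RefSeq GRCm38.p6 assembly, with DR1 words of up to 2 mismatches in capitals. The *Hadh* window lies at chr3:131271273-131271472 in intron 1, the *Etfdh* window at chr3:79628262-79628461 in intron 1, the *Acads* window at chr5:115119007-115119206 in intron 1, the *Acadm* window at chr3:153944820-153945019 upstream of the gene, and the *Acadl* window at chr1:66862704-66862903 in intron 1.
Hadh: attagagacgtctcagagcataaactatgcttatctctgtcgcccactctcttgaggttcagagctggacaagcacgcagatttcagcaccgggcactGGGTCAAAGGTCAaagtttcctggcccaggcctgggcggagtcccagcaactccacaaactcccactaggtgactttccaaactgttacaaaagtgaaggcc
Etfdh: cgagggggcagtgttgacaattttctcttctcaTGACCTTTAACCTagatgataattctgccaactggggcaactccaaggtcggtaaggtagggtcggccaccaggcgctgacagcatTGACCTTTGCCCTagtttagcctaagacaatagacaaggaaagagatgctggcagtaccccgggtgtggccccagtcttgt
Acads: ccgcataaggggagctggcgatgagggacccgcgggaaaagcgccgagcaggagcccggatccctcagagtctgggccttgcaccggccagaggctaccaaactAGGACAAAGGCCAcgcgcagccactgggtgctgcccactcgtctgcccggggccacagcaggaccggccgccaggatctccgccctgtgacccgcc
Acadm: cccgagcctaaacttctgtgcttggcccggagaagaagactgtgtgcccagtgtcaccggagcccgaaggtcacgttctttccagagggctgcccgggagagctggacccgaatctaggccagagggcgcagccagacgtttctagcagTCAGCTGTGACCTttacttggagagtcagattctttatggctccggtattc
Acadl: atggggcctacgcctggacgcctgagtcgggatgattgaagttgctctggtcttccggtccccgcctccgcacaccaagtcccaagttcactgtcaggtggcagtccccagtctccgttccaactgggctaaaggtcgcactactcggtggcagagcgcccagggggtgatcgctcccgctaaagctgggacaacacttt
The *Acadl* window, from a site called for PPARα and PPARδ in both feeding states, held no word with 2 mismatches or fewer, and its best match had 4. A match in such a window is a description of its letters and no evidence of binding, and the absence of one says only that these letters are not in the window.

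Every one of the 10 genes held PPARα and PPARδ in both the fed and the fasted list. For all 10, PPARα and PPARδ were each called in both states at one and the same site, compared with 4.96% of protein-coding genes. PPARα sites lay at 10 of 10 genes, against 48.2% of all genes, and PPARδ sites at 10 of 10, against 20.5%. By state, 30.6% of all genes had a PPARα site of both states and 5.85% a PPARδ site of both states. BCL6 was different, with a site at 6 of 10 genes (60.0%, interval 31.3% to 83.2%) against 30.0% of all genes, and a site of both states at 5 of 10, against 17.6%. *Acadl*, *Acadvl*, *Acads* and *Etfdh* had PPARα sites and no BCL6 site in C57BL/6 livers. Such genes made up 20.5% of all genes, but 4469 of the 10493 genes with a PPARα site. The heat map of peaks per gene and list and the plot of gene shares show both patterns.

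**Figure D1:**
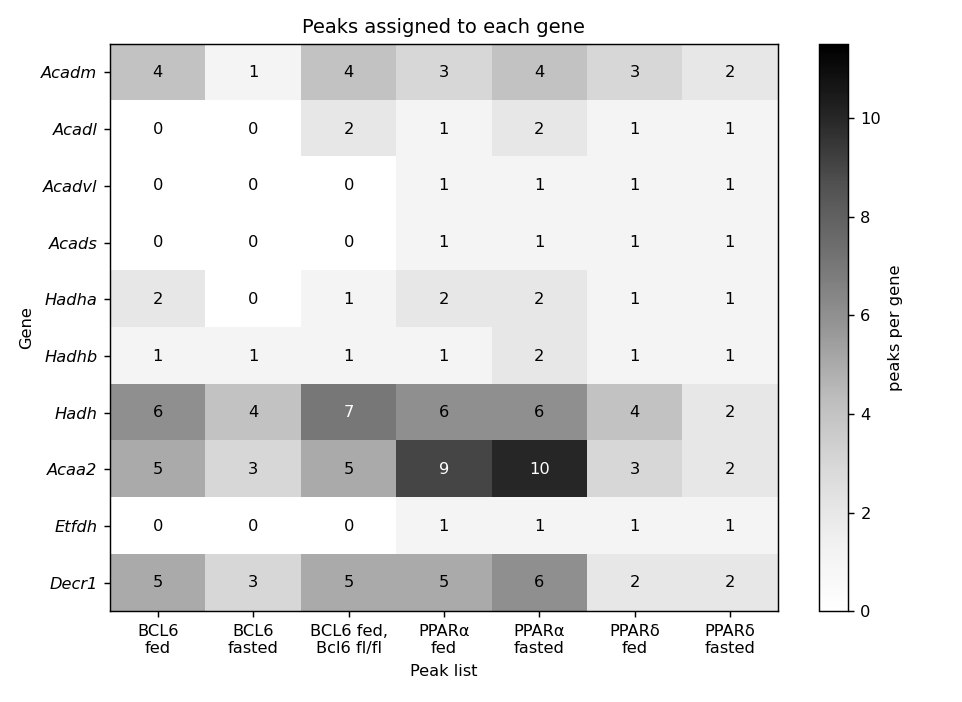
Number of peaks assigned to each of the 10 genes (vertical axis) in each of the 7 lists (horizontal axis), with darker cells for more peaks. PPARα and PPARδ are above 0 in every list for every gene, whereas *Acadvl*, *Acads* and *Etfdh* are at 0 in all 3 BCL6 lists.

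**Figure D2:**
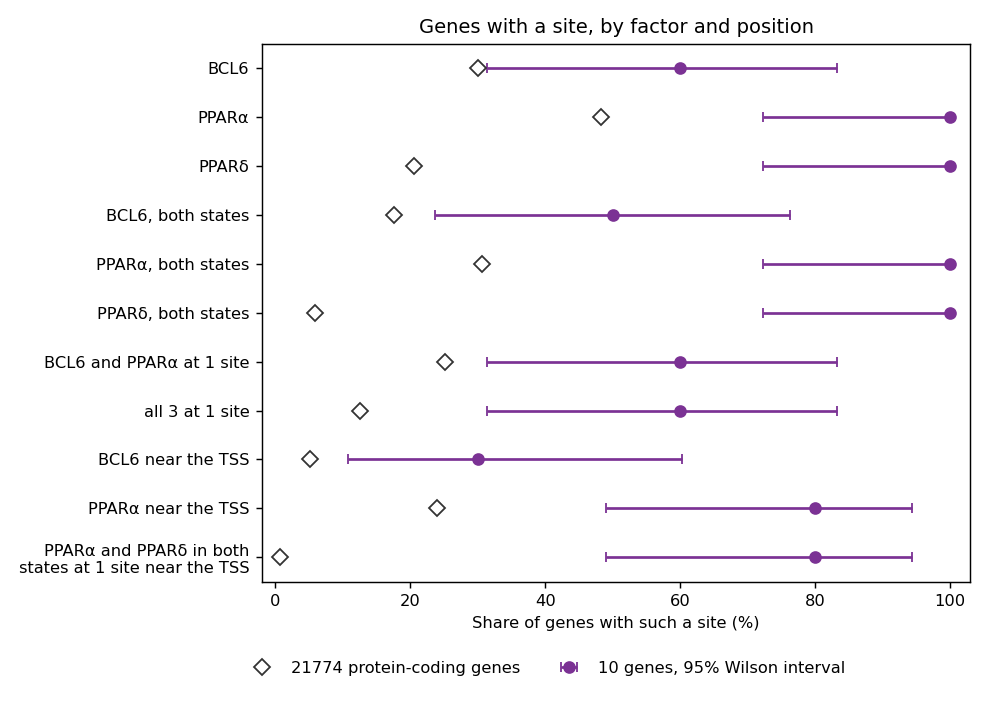
Share of genes with a site, in percent, among the 10 genes (filled circles, bars for 95% Wilson intervals) and among all 21774 protein-coding genes (open diamonds). Near means within 1000 bp of the TSS, and the lowest pair compares 80.0% with 0.749%.

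The genes differed widely in their number of sites. *Acaa2* held 11 sites, *Hadh* 8, *Acadm* and *Decr1* 6 each, *Acadl*, *Hadha* and *Hadhb* 2 each, and *Acadvl*, *Acads* and *Etfdh* 1 each. They also differed in the stretch of genome that the rule assigns to them, which was 188 kb for *Acaa2*, 73.5 kb for *Hadh* and 8.31 kb for *Acadvl*. The 3 genes with a single site had stretches of 8.31, 16.9 and 25.1 kb. Per Mb of assigned genome, the 10 genes together had 71.1 PPARα sites, compared with 16.7 over all genes, 36.5 PPARδ sites, compared with 4.07, and 46.1 BCL6 sites, compared with 8.50. Sites of each of the 3 factors, taken singly, were denser at these genes than over the genome as a whole. The lists of related genes that are counted further below also held many sites for their stretches. The 10 genes held 37 PPARα, 19 PPARδ and 24 BCL6 sites in 520 kb. The 9 peroxisomal β-oxidation genes held 46, 23 and 29 in 493 kb, and the 6 carnitine shuttle genes 22, 18 and 9 in 274 kb. The 14 other mitochondrial genes held 32, 12 and 17 in 729 kb.

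By peaks, the C57BL/6 lists held 30 of 21410 PPARα peaks at the 10 genes when fed and 35 of 29085 when fasted. BCL6 went from 23 of 15642 peaks in the fed list to 12 of 9613 in the fasted list. PPARδ had 18 of 7328 peaks when fed and 14 of 2399 when fasted, so that the 10 genes took 0.246% of the fed and 0.584% of the fasted PPARδ list. The fasted PPARδ list was the shorter, and still 13 of the 18 sites with fed PPARδ at the 10 genes were in it.

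PPARα and PPARδ met next to the TSS at 8 of the 10 genes. Within 1000 bp of the TSS, 8 of 10 genes held PPARα (23.9% of all genes), and all 8 held PPARα and PPARδ at one site (2.98% of all genes) with each receptor called in both states (0.749% of all genes, 163 of 21774). *Hadha* and *Hadhb*, whose starts lie 273 bp apart on opposite strands, were the exceptions and had no site of any factor within 1000 bp. PPARα within 1000 bp of the TSS was also common in the lists of related genes counted further below. It lay there at 9 of 9 peroxisomal, 5 of 6 carnitine shuttle and 9 of 14 other mitochondrial genes. PPARδ at those promoter sites was not counted. Distances are those of the mean peak center from the TSS, positive downstream. The map of sites by distance from the TSS shows these promoter sites beside the more distant ones.

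**Figure D3:**
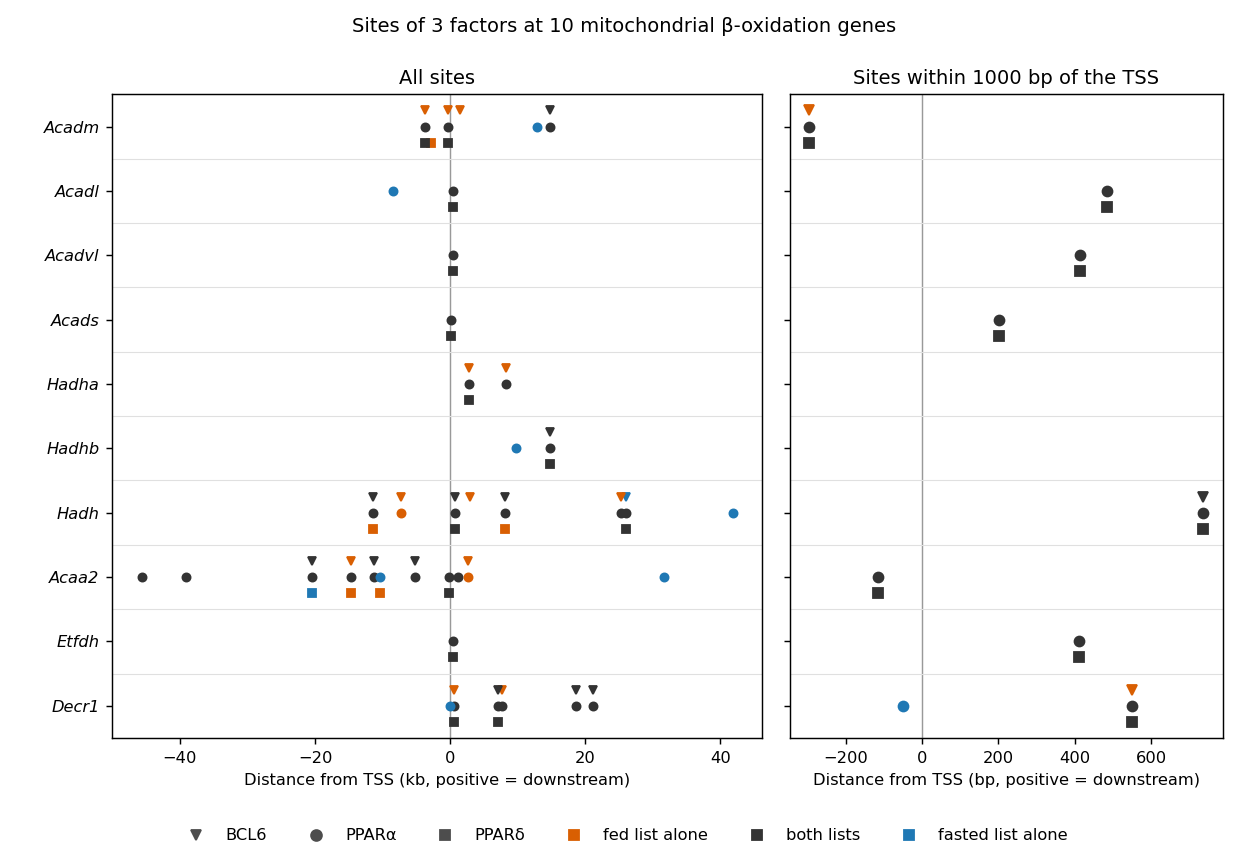
Sites by distance from the TSS of each gene, in kb for all 40 sites (left) and in bp for those within 1000 bp (right), with markers for BCL6 (triangles), PPARα (circles) and PPARδ (squares). Colors give the list in which a factor was called, and in the right panel 8 genes have PPARα and PPARδ markers of both lists at one position.

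The acyl-CoA dehydrogenases, which open each turn of the cycle and differ in the chain length they accept, each had a site within 1000 bp of the TSS. *Acadm*, for the medium-chain enzyme, held PPARα and PPARδ in both states at −295 bp (chromosome 3, 153944809 to 153945075), where BCL6 was called in the fed list alone. At *Acadl*, for the long-chain enzyme, both receptors were called in both states at +484 bp (chromosome 1, 66862691 to 66862948, intron 1). The only other site of *Acadl*, at −8456 bp, held PPARα in the fasted list alone. *Acadvl*, for the very-long-chain enzyme, had its single site at +412 bp (chromosome 11, 70014904 to 70015138, intron 2), and *Acads*, for the short-chain enzyme, had its own at +202 bp (chromosome 5, 115118995 to 115119309, intron 1). Both single sites held PPARα and PPARδ in both states and no BCL6.

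*Acadm* was the one dehydrogenase of the 4 with BCL6 in C57BL/6 livers. It had 4 BCL6 sites, 3 of them called in the fed list alone and 1 in both states. A second site of all 3 factors lay at −3771 bp (chromosome 3, 153948269 to 153948558), again with BCL6 in the fed list alone and both receptors in both states. BCL6 and PPARα met in both states at +14816 bp in intron 9 (153929651 to 153929964), without PPARδ. The remaining *Acadm* sites held a single factor each, BCL6 in the fed list at +1444 bp, PPARα in the fasted list at +12887 bp and PPARδ in the fed list at −2877 bp.

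*Hadha* and *Hadhb* encode the α and β subunits of the trifunctional protein, which carries out the last 3 steps of the cycle on long chains. *Hadha* had a site of all 3 factors at +2782 bp in intron 1 (chromosome 5, 30152034 to 30152321) and a BCL6-PPARα site at +8326 bp in intron 3 (30146525 to 30146778). At both, BCL6 was called in the fed list alone and PPARα in both states. *Hadhb* had a site of all 3 factors at +14832 bp in intron 6 (chromosome 5, 30170295 to 30170558), where each factor was called in both states. So the pair shared no promoter site, and their 3-factor sites differed in BCL6, which was called in the fed list alone at *Hadha* and in both lists at *Hadhb*. The other *Hadhb* site, at +9699 bp, held PPARα in the fasted list alone.

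*Hadh*, for the dehydrogenase that acts on short-chain 3-hydroxyacyl-CoA, had 7 BCL6 sites, more than any other of the 10 genes. Its promoter site at +736 bp (chromosome 3, 131271231 to 131271502, intron 1) held all 3 factors, each in both states. Sites of all 3 factors at +8112 bp (131263857 to 131264119, intron 1) and −11343 bp (131283308 to 131283582) held BCL6 and PPARα in both states and PPARδ in the fed list alone. The site at +26117 bp (131245858 to 131246107, intron 3) was the only one of the 24 BCL6 sites at the 10 genes that was called in the fasted list alone, with both receptors in both states. BCL6 and PPARα also met without PPARδ at +25237 bp (131246712 to 131247034) and at −7342 bp (131279308 to 131279577), each with BCL6 in the fed list alone. The 2 remaining sites held BCL6 in the fed list at +2985 bp and PPARα in the fasted list at +41885 bp. *Hadh* thus combined all 3 patterns of BCL6 calling within one gene.

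*Decr1*, for the reductase that prepares polyunsaturated chains for the cycle, had 5 BCL6 sites, and PPARα was called in both states at each of them. All 3 factors met at +550 bp (chromosome 4, 15944691 to 15944975, intron 1), with BCL6 in the fed list alone, and at +7063 bp (15938153 to 15938450, intron 1), with each factor in both states. BCL6 and PPARα met without PPARδ at +7739 bp (15937508 to 15937767), with BCL6 in the fed list alone, and at +18634 bp (15926625 to 15926865) and +21198 bp (15924039 to 15924315), with BCL6 in both states. A further promoter site at −50 bp (15945316 to 15945538) held PPARα in the fasted list alone, so that *Decr1* had a pair of PPARα sites within 1000 bp of its TSS. *Etfdh*, for the protein that passes electrons from the dehydrogenases to ubiquinone, was at the other end, with 1 site at +410 bp (chromosome 3, 79628245 to 79628474, intron 1) of PPARα and PPARδ in both states. That site also lay 722 bp from a start of *4930579G24Rik*, whereas none of the other 8 sites within 1000 bp of a TSS had a second protein-coding start within that distance.

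*Acaa2*, for the thiolase that closes the cycle, held the most sites, and 6 of its 11 lay inside the neighboring gene *Myo5b*. Its promoter site at −115 bp (chromosome 18, 74778975 to 74779210) held PPARα and PPARδ in both states and no BCL6 in C57BL/6 livers. All 3 factors met at −20420 bp (74758609 to 74759009), where PPARδ was called in the fasted list alone, and at −14675 bp (74764413 to 74764658), where BCL6 and PPARδ were called in the fed list alone. BCL6 and PPARα met without PPARδ at −11250 bp (74767814 to 74768093) and −5246 bp (74773825 to 74774088), both in both states. At +2670 bp in intron 1 (74781773 to 74781990) BCL6 and PPARα were both called in the fed list alone. The remaining 5 sites of *Acaa2* ran from −45640 to +31629 bp and held PPARα, 3 of them in both states, with PPARδ at 1. Assignment by the nearest TSS does not show that the sites inside *Myo5b* act on *Acaa2*.

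Most receptor sites of the 10 genes were called in both feeding states. Of 37 PPARα sites, 28 were called in both states (75.7%, interval 59.9% to 86.6%), 7 in the fasted list alone (18.9%) and 2 in the fed list alone (5.41%). Over the genome the shares were 51.3%, 35.9% and 12.9%. For PPARδ, 13 of 19 sites were called in both states (68.4%, interval 46.0% to 84.6%), 5 in the fed list alone (26.3%) and 1 in the fasted list alone (5.26%), whereas 18.7% of all PPARδ sites were called in both states, 70.7% in the fed list alone and 10.6% in the fasted list alone. The share in both states was higher at the 10 genes than over the genome for both receptors, as the bars of feeding state show.

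**Figure D4:**
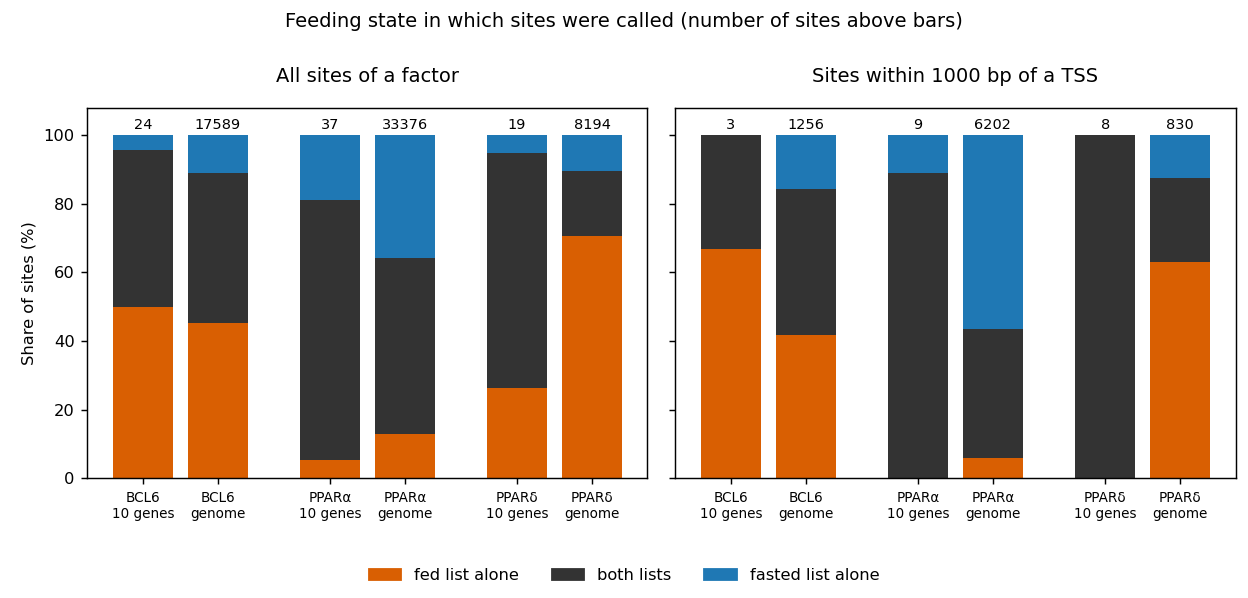
Percent of sites called in the fed list alone, in both lists or in the fasted list alone, for each factor at the 10 genes and over the genome, for all sites (left) and for sites within 1000 bp of a TSS (right). For PPARδ the part of both lists takes 68.4% of the bar at the 10 genes and 18.7% over the genome, and near a TSS 8 of 8 sites.

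Position divided the PPARδ sites. All 8 PPARδ sites within 1000 bp of a TSS were called in both states (interval 67.6% to 100%), compared with 24.5% of the 830 PPARδ sites at such positions over the genome, where 63.1% were called in the fed list alone and 12.4% in the fasted list alone. Farther away, 5 of 11 were called in both states (45.5%, interval 21.3% to 72.0%), compared with 18.1%. Where PPARα was itself called in both states, PPARδ was in both at 13 of 17 sites of the 10 genes (76.5%, interval 52.7% to 90.4%) and at 21.9% of such sites over the genome. The same held with and without BCL6 at the site, at 8 of 12 with it (66.7%, against 21.7%) and at 5 of 5 without it (interval 56.6% to 100%, against 22.6%). Near a TSS and with PPARα in both states, PPARδ was called in both states at 30.1% of sites over the genome and at 8 of 8 here. The 5 PPARδ sites called in the fed list alone lay at *Acadm*, *Hadh* and *Acaa2*, between 2877 and 14675 bp from the TSS.

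PPARα near a TSS was called in both states at 8 of 9 sites (88.9%, interval 56.5% to 98.0%, against 37.5%) and in the fasted list alone at 1 (56.5% over the genome). The 7 PPARα sites called in the fasted list alone lay at *Acadm*, *Acadl*, *Hadhb*, *Hadh*, *Decr1* and *Acaa2*. None of the 7 held BCL6, and over the genome 1588 of the 11966 such sites held it, so that most lacked it there too. At the 15 PPARα sites without BCL6, 8 were called in both states (53.3%, interval 30.1% to 75.2%) and 7 in the fasted list alone (46.7%), compared with 34.1% and 52.5% over the genome. The 2 PPARα sites called in the fed list alone, *Hadh* −7342 and *Acaa2* +2670, both held BCL6 in the fed list alone. Over the genome, 1644 of the 4291 PPARα sites called in the fed list alone held BCL6, in either feeding state.

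The feeding states of BCL6 at the 10 genes were close to those over the genome. Of 24 BCL6 sites, 12 were called in the fed list alone (50.0%, interval 31.4% to 68.6%), 11 in both states (45.8%) and 1 in the fasted list alone (4.17%), against 45.3%, 43.6% and 11.1% of all BCL6 sites. All 3 genome shares lay inside the intervals of the 10 genes. By gene, *Hadha* had BCL6 in the fed list alone, *Acadm*, *Acaa2* and *Decr1* had both fed-only sites and sites of both states, and *Hadhb* had its single site in both.

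BCL6 and PPARα shared 22 sites, which were 91.7% of the BCL6 sites (interval 74.2% to 97.7%) and 59.5% of the PPARα sites (interval 43.5% to 73.7%), against 77.4% and 40.8% over the genome. The genome share of BCL6 sites with PPARα lay inside the interval of the 10 genes, and that of PPARα sites with BCL6 lay below it. The 22 sites lay at 6 of 10 genes, against 25.1% of all genes. Peak centers of BCL6 and PPARα at them lay 1 to 92 bp apart with a median of 26.0 bp, and the genome median was 25.0 bp. At the shared sites PPARα was called in both states at 20 of 22 (90.9%, against 76.3%), in the fed list alone at 2 (against 12.1%) and in the fasted list alone at 0 (interval 0% to 14.9%, against 11.7%), while BCL6 was called in the fed list alone at 10 (39.4% over the genome), in both states at 11 (50.3%) and in the fasted list alone at 1 (10.3%). The 2 BCL6 sites without PPARα, *Acadm* +1444 and *Hadh* +2985, were both called in the fed list alone. Over the genome, 5367 of 13614 shared sites and 7976 of all 17589 BCL6 sites had BCL6 in the fed list alone. BCL6 sites without PPARα were thus more often of the fed list alone there too.

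All 3 factors met at 12 of 40 sites (30.0%, interval 18.1% to 45.4%), compared with 12.0% of all sites, and at 6 of 10 genes, compared with 12.5%. These were 4 sites at *Hadh*, 2 each at *Acadm*, *Acaa2* and *Decr1*, and 1 each at *Hadha* and *Hadhb*. At 6 sites (15.0%, against 6.02% of all sites) PPARα and PPARδ met without BCL6, 4 of them at the genes that lacked BCL6 and the other 2 at *Acaa2*. Promoter and distal sites differed in their partners, since PPARα within 1000 bp of a TSS held PPARδ at 8 of 9 sites and BCL6 at 3 of 9, whereas farther away it held PPARδ at 10 of 28 and BCL6 at 19 of 28. Over the genome, PPARα near a TSS held PPARδ at 11.2% and BCL6 at 15.5%, and farther away 23.1% and 46.6%. BCL6 within 1000 bp of a TSS lay at 3 of 10 genes, *Acadm*, *Hadh* and *Decr1*, against 5.15% of all genes. PPARα was called at 18 of the 19 PPARδ sites (94.7%, against 84.9%), which were 48.6% of the PPARα sites (against 20.8%). Centers of PPARδ and PPARα lay 1 to 76 bp apart at those 18 sites, with a median of 13.8 bp against 23.0 bp over the genome.

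None of the 40 sites had its center in an exon of the first transcript of its assigned gene. By place, 23 lay in introns of that gene, 13 of them in intron 1, another 15 upstream of it and 2 downstream. The *Acaa2* sites inside *Myo5b* were counted as upstream, and the exons of *Myo5b* were not examined. The BCL6 sites lay at a median of 7926 bp from the TSS, the PPARα sites at 8326 bp and the PPARδ sites at 2877 bp. PPARδ thus had the shortest median distance, with 8 of 19 sites within 1000 bp (42.1%, interval 23.1% to 63.7%, against 10.1% over the genome). PPARα had 9 of its 37 sites within 1000 bp, and these included the 8 with PPARδ. The closest PPARα site lay 50 bp from a TSS and the closest PPARδ site 115 bp.

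A second set of livers gave most of the same BCL6 sites. In *Bcl6* fl/fl livers, 25 of 17454 BCL6 peaks belonged to the 10 genes, and 20 of the 23 sites with fed BCL6 in C57BL/6 livers had a peak center within 200 bp (87.0%, interval 67.9% to 95.5%, against 69.4% of all fed BCL6 sites). All 11 sites of both states were found again (interval 74.1% to 100%, against 88.6% over the genome). So were 9 of 12 fed-only sites (interval 46.8% to 91.1%, against 51.0% over the genome). Each of these genome shares lay inside the interval of the 10 genes. These counts rest on reading that list as one of fed livers. The 3 that were not called were *Hadha* +8326, *Acaa2* −14675 and *Acaa2* +2670. BCL6 at *Hadh* +26117, which in C57BL/6 livers was called only when fasted, was called in this list.

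Of the 25 peaks in *Bcl6* fl/fl livers, 21 lay at a BCL6 peak of C57BL/6 livers, 3 at a site of PPARα without BCL6 and 1 at no site. The 4 additional peaks were at *Acadl* and *Acaa2*. *Acadl*, without BCL6 in C57BL/6 livers, had a peak at +478 bp, on its promoter site of PPARα and PPARδ, and another at −141 bp (chromosome 1, 66863349 to 66863551). *Acaa2* had peaks at −145 bp, on its promoter site, and at +1210 bp. With this list 7 of 10 genes had BCL6, and *Acadvl*, *Acads* and *Etfdh* had none in any list. The lists come from different mice and genotypes and carry no depth, so that the difference at *Acadl* cannot be told apart from one of threshold.

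Among the PPARα windows of the 10 genes, those with a DR1 word of up to 2 mismatches also held PPARδ. Over the genome, 1475 of the 4666 PPARα sites with such a word held PPARδ. Of the 18 PPARα sites with PPARδ, 9 held a word of up to 2 mismatches (50.0%, interval 29.0% to 71.0%), and of the 19 PPARα sites without PPARδ, 0 did (interval 0% to 16.8%), compared with 21.2% and 12.1% over the genome. The second of these genome shares lay inside the interval of the 10 genes. Centered on PPARδ, 9 of 19 windows held a word (47.4%, interval 27.3% to 68.3%), against 21.0% of all PPARδ sites and 3.26% of their flanks. A word lay in 7 of the 22 PPARα sites with BCL6 (31.8%, interval 16.4% to 52.7%, against 13.4% over the genome) and in 2 of the 15 without it (13.3%, interval 3.74% to 37.9%, against 14.4%). The 5 sites with a word within 1000 bp of the TSS were the promoter sites of *Acadm*, *Acads*, *Hadh*, *Etfdh* and *Decr1* +550. The plot of matches against mismatches allowed gives the same shares at other limits.

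The BCL6 element TTCCTAGAA, searched on both strands with up to 1 mismatch, lay in 1 of 24 BCL6 windows of 200 bp at the 10 genes (4.17%, interval 0.739% to 20.2%), at *Hadh* −7342. Of all BCL6 sites 15.8% held it, and 7.02% of windows 1000 bp to either side. The genome share lay inside the interval of the 10 genes. *Hadh* −7342 was also a site of PPARα, and its DR1 word was no better than 4 mismatches.

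**Figure D5:**
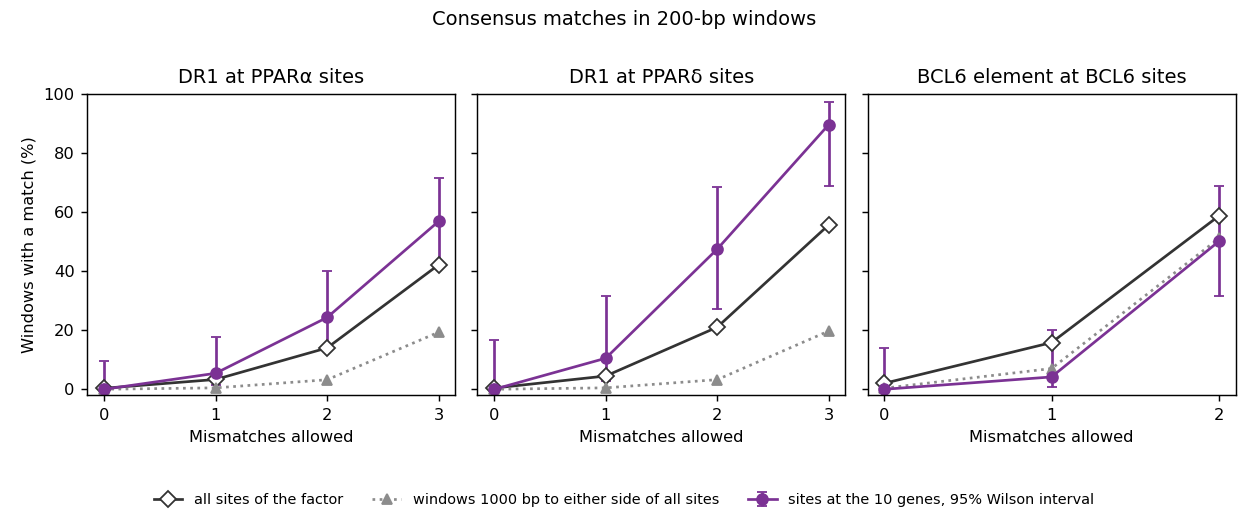
Percent of 200-bp windows with a match (vertical axis) by the number of mismatches allowed (horizontal axis), for DR1 at PPARα sites, DR1 at PPARδ sites and the BCL6 element at BCL6 sites. With 2 mismatches DR1 lay in 24.3% of PPARα and 47.4% of PPARδ windows at the 10 genes (filled circles, 95% Wilson intervals), against 14.0% and 21.0% of all sites (diamonds), and with 1 mismatch the BCL6 element lay in 4.17% against 15.8%.

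Other genes of acyl-CoA oxidation and transport were counted as 3 lists. The 14 other mitochondrial genes of the first list, among them *Echs1*, *Eci1*, *Etfa* and *Etfb*, held 35 sites, with PPARα at 14 genes, PPARδ at 7 and BCL6 at 7. They ranged from 8 sites at *Eci2* to 1 at *Acad8*, *Acad9*, *Acad10*, *Acad12* and *Gcdh*. PPARδ was called in both states at 4 of their 12 PPARδ sites, in the fed list alone at 6 and in the fasted list alone at 2. Their PPARα sites were called in both states at 16 of 32. A PPARδ site of both states lay at 4 of the 14 genes, *Eci1*, *Eci2*, *Etfa* and *Etfb*. The list also holds acyl-CoA dehydrogenases of amino acid breakdown, *Acad8*, *Acadsb*, *Ivd* and *Gcdh*, and of these *Acadsb* had PPARδ, in the fed list alone.

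The carnitine shuttle brings long-chain acyl groups into the mitochondrion, and its 6 genes held 24 sites. PPARα was called in both states at 18 of their 22 PPARα sites, but PPARδ was called in both states at 5 of 18 sites and in the fed list alone at 13. All 6 shuttle genes had PPARδ, 4 of them a site of both states. BCL6 lay at 9 of these sites, 8 of them in both states and 1 in the fed list alone. The 9 peroxisomal β-oxidation genes, whose enzymes shorten very long chains, held 54 sites, with PPARδ in both states at 13 of 23 and in the fed list alone at 9. All 9 peroxisomal genes had a PPARδ site of both states, as the 10 enzymes did. BCL6 lay at 29 of the peroxisomal sites, 16 of them in the fed list alone. Among these lists the feeding states of PPARδ at the 10 enzymes were closest to those of the peroxisomal genes and farthest from those of the shuttle. *Cpt1a* held the most sites of the shuttle, 9, and *Abcd3* the most of the peroxisomal genes, 15.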

How the data were processed

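BCL6, PPARα and PPARδ were measured by ChIP-seq in 21 of the 59 samples of the series, which lie behind the 7 lists used here. The deposited values are positions in bp (a chromosome, a start and an end per peak), and no count, score or normalization comes with them. Per the study's methods, the authors used Bowtie on mm10 for uniquely placed reads, with 1 read per start position. The authors then found peaks with HOMER in the pooled triplicates against input, and kept those past their thresholds of enrichment in DESeq2 on the tags of single libraries. No sample's depth is in the lists.

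Peaks were joined, assigned to genes with RefSeq GRCm38.p6 (the assembly of mm10; 84748 mRNAs) and counted with Python 3.11.15, NumPy 2.4.6, SciPy 1.17.1 and pysam 0.24.0, and plotted with Matplotlib 3.10.9. The functions were tested on simulated data. Counts are descriptions beside the same counts over all sites or genes, and no test was made. All 10 genes are named, and sites are given singly where BCL6 and PPARα or all 3 factors met, or within 1000 bp of a TSS. A few single-factor sites and *4930579G24Rik* are named outside that rule, after their values were seen. The genes, the lists and the counts were chosen with earlier results of these data known. Alternatives covered the joining distance, the reach and set of TSSs, the way a peak belongs to a gene, the fed BCL6 list, and the windows and mismatches of the scans. Samples of other antibodies and genotypes were not used here.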

Additional observations from a re-analysis of the deposited data

How the results depend on the processing

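Under alternatives, 12 values moved, shares beyond their counting interval and counts by more than 1.5 times. Inside its interval, the DR1 share went from 24.3% to 13.5% with a window of 50 bp, and the share of PPARδ sites in the fed list alone from 26.3% to 13.3% with the nearest TSS within 10 kb. With peaks assigned by a center inside the gene alone, the 10 genes had 23 sites in place of 40, 21 of PPARα in place of 37, 11 of PPARδ in place of 19, 14 of BCL6 and PPARα in place of 22, and 7 of all 3 factors in place of 12, since the 15 upstream and 2 downstream sites were then left out. PPARδ was in that setting called in the fed list alone at 9.09% of sites, in place of 26.3%, and in both states at 90.9%, not 68.4%. With the nearest TSS taken within 10 kb, 86.7% of PPARδ sites were of both states. The share of PPARα sites with DR1 was 5.41% with 1 mismatch and 56.8% with 3 mismatches, and that of BCL6 sites with the BCL6 element was 0 with 0 mismatches and 50.0% with 2. Over the genome these shares were 3.32% and 42.1% for DR1, and 2.02% and 58.6% for the BCL6 element. Of windows 1000 bp to either side, 19.3% held DR1 with 3 mismatches and 51.0% the BCL6 element with 2. The 8 genes with PPARα and PPARδ in both states near the TSS numbered 6 with near taken as 500 bp, and 8 under each of the other settings run. The TSS set of curated mRNAs, the distances of 500 and 2000 bp and all alternatives for these genes and for PPARδ in both states were chosen after seeing the data. No paired analysis was possible because each list is pooled over its 3 replicates. Leaving out a replicate could not be run for the same reason. Counts of 1 to 11 sites a gene limit every share here.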
